A study of Mus musculus with 4 samples.

Results

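The genes described here are 9 receptors, 6 of them inhibitory (checkpoint) receptors of lymphocytes, 2 of them costimulatory receptors of the TNF receptor family and 1 a decoy receptor for interleukin-1. They were taken by name from the deposited count table, where all 9 had a row among 15835 genes. The RNA came from ILC2 (group 2 innate lymphoid cells, which live in tissues and make type 2 cytokines but have no antigen receptor), isolated from the islets of Langerhans of fasted and fed C57BL/6j mice. Each treatment is represented by 4 libraries, named here by treatment and by the number in their column name (1, 3, 4 and 5), and the columns named control were taken as the fed ones. All mice shared 1 strain and the labels name no transgene. The sources used here do not give the age or sex of the mice, the length of the fast, the number of mice behind a library or the sorting gate. Libraries were barcoded and sequenced together in 4 files that each held both treatments, by CEL-seq2, a method that counts the 3′ ends of polyadenylated RNA. Counts are therefore not scaled by gene length, and levels are compared between groups and not between genes.

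Checkpoint receptors set a limit on lymphocyte activation. They bind ligands on neighbouring cells, and most carry tyrosine motifs in the cytoplasmic tail that recruit phosphatases and so dampen activating signals. TNF receptor family members such as GITR and OX40 act the other way: bound by their ligands, they gather TRAF adaptor proteins and switch on NF-κB, which favours survival and cytokine output. On ILC2, KLRG1 is widely used as a surface marker of mature cells, PD-1 is known as a brake on cytokine production, and GITR and OX40 are known as costimulators.

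The libraries carried ILC2 transcripts throughout. All 18 genes of an ILC2 identity list had counts in both groups, and on library sizes scaled by TMM (a factor that offsets differences in RNA composition) the list summed to between 2275 and 2761 CPM (counts per 1000000 counts of scaled library size) in fasted libraries and between 1914 and 2994 CPM in fed libraries. Total counts ran from 1797504 to 25252366 per library. Much of the RNA was that of acinar cells, the enzyme-secreting cells around the islets: 23 acinar marker genes took 3.02% and 3.37% of the counts in fasted libraries 1 and 3, 68.9% and 70.6% in fasted libraries 4 and 5, and between 42.6% and 73.6% in fed libraries. Fasted libraries 1 and 3 thus stand apart, and the members' results that rest on them are also given without them. In bulk RNA, fewer cells of a type and less RNA per cell cannot be told apart.

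Of the 9 genes, Klrg1, Pdcd1 and Tnfrsf18 passed the filter on low counts and were tested between fasted and fed libraries over all genes, Tnfrsf4 was counted in 7 of 8 libraries but fell under the filter, and Ctla4, Tigit, Lag3, Cd160 and Il1r2 had between 0 and 10 counts over the libraries of a treatment. None of the 3 tested genes passed the threshold (edgeR, Benjamini-Hochberg adjusted p under 0.05), where 0% of the 7700 genes tested did. DESeq2 called 8 genes and limma-voom 0, none of them a member. At an unadjusted p under 0.05 the count was 0 of 3 by edgeR, 1 of 3 by DESeq2 (Pdcd1) and 1 of 3 by limma-voom (Tnfrsf18). Of all genes tested, 4.39% (338 genes) passed that mark by edgeR, 4.57% (352 genes) by DESeq2 and 9.27% (714 genes) by limma-voom. No tested member separated fasted from fed libraries without overlap, which 3.52% of all genes tested did.

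Klrg1, which encodes the inhibitory receptor for cadherins KLRG1, was at the same mean level in both groups. Its level was 390, 424, 251 and 436 CPM in fasted libraries 1, 3, 4 and 5, against 454, 269, 276 and 491 CPM in fed libraries 1, 3, 4 and 5. The groups overlapped, and libraries numbered 4 were low in both treatments while those numbered 5 were high in both. The mean was 375 ± 85.1 CPM in fasted libraries and 373 ± 116 CPM in fed libraries (SD, n = 4 each). The log2 fold change, fasted minus fed, was 0.01 ± 0.27 (SE), with an edgeR p of 1.00 after Benjamini-Hochberg adjustment, and the alternatives tried moved it by at most 0.16, enough to change its sign in several of them. Set against the summed counts of the ILC2 identity genes, a scale that leaves out acinar RNA, Klrg1 stood at 152 ± 36.8 per 1000 identity counts in fasted libraries and 149 ± 47.1 per 1000 in fed libraries (SD, n = 4 each). Between libraries of the same number, the fasted one was lower in 3 of 4 pairs. In the mm10 assembly Klrg1 lies on chromosome 6 at 122270596 to 122282882, on the minus strand.

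Pdcd1, which encodes the inhibitory receptor PD-1, varied more between fasted libraries than between treatments. It was at 69.7, 18.0, 6.64 and 3.22 CPM in fasted libraries 1, 3, 4 and 5, against 7.58, 3.79, 4.51 and 13.4 CPM in fed libraries 1, 3, 4 and 5. Fasted libraries 1 and 3 were above every fed library, and fasted library 5 was below every fed library. These levels rest on 298, 92, 36 and 17 counts in the fasted libraries and on 17, 28, 61 and 39 counts in the fed libraries, in that order of numbers. Fasted library 1 alone held 298 of the 443 counts of its group. The mean was 24.4 ± 30.9 CPM in fasted libraries and 7.31 ± 4.36 CPM in fed libraries (SD, n = 4 each), and the log2 fold change, fasted minus fed, was 1.78 ± 0.91 (SE; adjusted p = 1.00 by edgeR with Benjamini-Hochberg). In mm10, Pdcd1 lies on chromosome 1 at 94038305 to 94052553, on the minus strand.

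The Pdcd1 difference rested mostly on fasted library 1 and less on fasted library 3, the libraries poor in acinar RNA. No fed library was as poor in it, so its part cannot be told apart from that of fasting. Among fed libraries Pdcd1 was highest in library 5, at 13.4 CPM and an acinar share of 65.9%. Without fasted library 1 the fasted mean was 9.27 CPM and the log2 fold change 0.38 ± 0.66. Leaving out fasted library 3 alone gave a log2 fold change of 1.89 ± 0.97. Without fasted libraries 1 and 3 the fasted mean was 4.93 CPM, against 7.31 CPM in fed libraries, and the log2 fold change was -0.54 ± 0.68. With the log2 acinar share of each library as a covariate it was -0.30 ± 0.65. Fasted libraries 1 and 3 lie far from all others in that share, so this setting is close to leaving them out. Blocking by library number gave 1.10 ± 0.86. None of these settings called the gene, and its log2 fold change was negative in both that took out or adjusted for fasted libraries 1 and 3. On the scale of ILC2 identity genes the order of the fasted libraries was the same: Pdcd1 stood at 28.5 and 6.50 per 1000 ILC2 identity counts in fasted libraries 1 and 3, at 2.71 and 1.42 in fasted libraries 4 and 5, and between 1.27 and 5.55 in fed libraries. Between libraries of the same number, the log2 difference was 3.14, 2.15, 0.52 and -1.94 for numbers 1, 3, 4 and 5.

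T cells also express Pdcd1, and regulatory T cells carry most of the receptors described here, so their markers were counted in the same libraries. Of 12 T cell markers, 11 had a row and 8 had counts in fasted libraries, against 10 in fed libraries. On the TMM scale they summed to 95.7, 81.6, 82.2 and 93.5 CPM in fasted libraries 1, 3, 4 and 5, against 51.7, 49.3, 46.3 and 81.2 CPM in fed libraries 1, 3, 4 and 5. On this scale the fasted libraries were all above the fed ones, though fasted library 3 and fed library 5 were nearly equal. Over library totals the groups overlapped, at 52.6 to 200 CPM in fasted libraries and 24.8 to 64.5 CPM in fed libraries. On the TMM scale fasted library 1, with the most Pdcd1, was 2.22 CPM above fasted library 5, with the least. Of the 4 T cell markers tested, 4 had a positive log2 fold change (median 0.84), 2 had an unadjusted p under 0.05, Cd3g did not overlap between groups, and 0 passed the adjusted threshold. Of all genes tested, 4.39% had an unadjusted p under 0.05 by edgeR and 3.52% did not overlap between groups. Most of these counts were of Cd3g, the gamma chain of the CD3 complex, and Lef1, a transcription factor. Of the other defining markers, Cd3e had 33, 8, 34 and 43 counts in fasted libraries 1, 3, 4 and 5, against 2, 22, 0 and 8 counts in fed libraries 1, 3, 4 and 5. Cd3d had between 0 and 5 counts in any library, and Cd8a had 0 counts in fasted libraries and 11 in fed libraries. Of 4 regulatory T cell markers, Foxp3, the factor that defines these cells, had 0 counts in fasted libraries and 2 in fed libraries, and the list summed to between 0.78 and 5.85 CPM in fasted libraries and between 0 and 4.58 CPM in fed libraries. The highest of these, in fasted library 1, consisted of 25 counts of Ikzf4, an Ikaros family factor. Natural killer cells and other innate lymphoid cells also express several of these receptors, and their 12 markers, of which 4 had a row, summed to between 0.37 and 4.93 CPM in fasted libraries and between 0 and 3.18 CPM in fed libraries. Of 12 myeloid markers 8 had a row, and they summed to 12.4, 4.68, 0.55 and 3.03 CPM in fasted libraries 1, 3, 4 and 5, against 0.45, 3.11, 2.81 and 0 CPM in fed libraries 1, 3, 4 and 5. Fasted libraries 1 and 3 were above every other library in this sum, as they were for Pdcd1 and Tnfrsf18. Their sums rest on 53 and 24 counts, against 23 and 38 counts in fed libraries 3 and 4. Of the 8 myeloid markers with a row, 5 had counts in fed libraries, and Csf1r, Lyz2 and S100a8 had 0 there. The part of these cells in the levels of Pdcd1 and the other members was not tested.

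**Figure D1:**
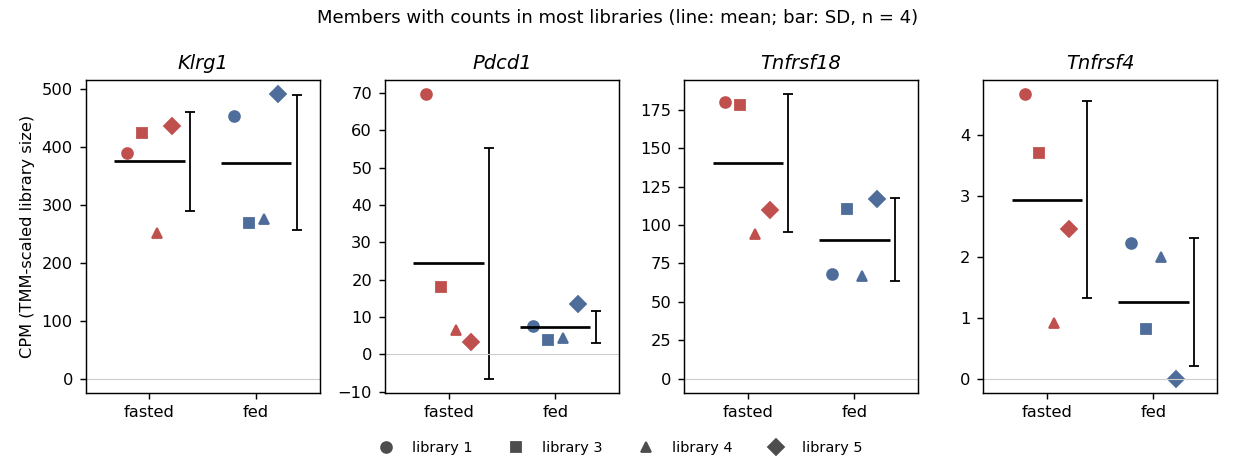
Levels of Klrg1, Pdcd1, Tnfrsf18 and Tnfrsf4 in CPM over TMM-scaled library sizes (y axis, linear), for each of the 4 fasted and 4 fed libraries (x axis), with the group mean as a line and the SD as a bar. Klrg1 overlaps between groups, Pdcd1 is high at 69.7 CPM in fasted library 1, and for Tnfrsf18 and Tnfrsf4 fasted libraries 1 and 3 lie above every fed library.

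Start regions of the genes are shown for the 3 members with counts in most libraries that had an entry in the RefSeq table of build GRCm38.p6 (the mm10 assembly), in which 7 of the 9 members were found. Each runs from 250 bases before to 50 bases after the annotated start, 5′ to 3′ on the gene's strand. Capitals mark GATAA, the core letters of sites bound by GATA factors such as the ILC2 factor GATA3, and GGAAA, the core letters of sites bound by NFAT factors, which act on Pdcd1 in activated lymphocytes; TTATC and TTTCC are the same letters on the opposite strand.
Pdcd1, chr1:94052504-94052803, minus strand: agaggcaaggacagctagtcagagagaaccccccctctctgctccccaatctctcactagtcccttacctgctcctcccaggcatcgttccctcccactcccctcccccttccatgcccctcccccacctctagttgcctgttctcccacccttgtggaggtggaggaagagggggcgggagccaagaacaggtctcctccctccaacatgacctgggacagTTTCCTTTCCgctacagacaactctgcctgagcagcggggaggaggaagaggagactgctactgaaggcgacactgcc
Tnfrsf18, chr4:156026072-156026371, plus strand: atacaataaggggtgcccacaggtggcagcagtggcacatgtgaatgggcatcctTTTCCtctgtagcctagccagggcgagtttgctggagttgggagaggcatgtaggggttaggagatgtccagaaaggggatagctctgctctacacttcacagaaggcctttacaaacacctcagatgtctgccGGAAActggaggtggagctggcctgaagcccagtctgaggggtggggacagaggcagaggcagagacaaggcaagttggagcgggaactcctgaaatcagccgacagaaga
Tnfrsf4, chr4:156013445-156013744, plus strand: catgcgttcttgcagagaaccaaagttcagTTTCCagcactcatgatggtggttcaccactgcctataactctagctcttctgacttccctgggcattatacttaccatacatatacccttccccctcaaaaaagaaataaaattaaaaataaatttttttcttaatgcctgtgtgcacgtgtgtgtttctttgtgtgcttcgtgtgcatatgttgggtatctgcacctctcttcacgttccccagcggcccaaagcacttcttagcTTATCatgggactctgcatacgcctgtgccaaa
The Pdcd1 region held 2 GGAAA matches side by side, beginning 28 and 23 bases before the start, and 0 of GATAA. The Tnfrsf18 region held 2 of GGAAA and 0 of GATAA, and the Tnfrsf4 region held 1 of each. GATAA occurred on either strand in 25.4% and GGAAA in 61.3% of the 32851 promoters of this length in the table, and the matches are given as a description of these letters.

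Tnfrsf18, which encodes the costimulatory receptor GITR, was higher on average in fasted libraries, though not past the threshold. It was at 180, 178, 94.4 and 109.9 CPM in fasted libraries 1, 3, 4 and 5, against 67.8, 110.4, 66.7 and 117 CPM in fed libraries 1, 3, 4 and 5. Fasted libraries 1 and 3 were above every fed library, while fasted libraries 4 and 5 lay within the fed range. The mean was 141 ± 44.8 CPM in fasted libraries and 90.5 ± 27.0 CPM in fed libraries (SD, n = 4 each), and the log2 fold change was 0.63 ± 0.30 (SE; edgeR, unadjusted p = 0.055, Benjamini-Hochberg adjusted p = 1.00). Tnfrsf18 was higher in the fasted library in 3 of 4 pairs of the same number, at log2 differences of 1.40, 0.69 and 0.50 for numbers 1, 3 and 4 and -0.09 for number 5.

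Outside the libraries poor in acinar RNA, where the Pdcd1 difference was negative, that of Tnfrsf18 was small and positive. Without fasted libraries 1 and 3 the fasted mean was 102 CPM and the log2 fold change 0.17 ± 0.35, and with the acinar covariate it was 0.24 ± 0.29. Per 1000 ILC2 identity counts Tnfrsf18 stood at 73.6, 64.5, 38.6 and 48.3 in fasted libraries 1, 3, 4 and 5, against 23.9, 36.9, 34.9 and 48.6 in fed libraries 1, 3, 4 and 5. On this scale too, only fasted libraries 1 and 3 were above the fed libraries.

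Tnfrsf4, which encodes the costimulatory receptor OX40, is the chromosomal neighbour of Tnfrsf18. In mm10 it lies on chromosome 4 at 156013843 to 156016612, on the same strand and 9551 bases before the start of Tnfrsf18 at 156026164 to 156028895. It had 20, 19, 5 and 13 counts in fasted libraries 1, 3, 4 and 5, against 5, 6, 27 and 0 counts in fed libraries 1, 3, 4 and 5. On the TMM scale these were 4.68, 3.71, 0.92 and 2.46 CPM in fasted libraries, against 2.23, 0.81, 2.00 and 0 CPM in fed libraries. Fasted libraries 1, 3 and 5 were above every fed library, and fasted library 4 lay within the fed range. Tested without a filter on low counts, the log2 fold change was 1.20 ± 0.98 (SE, adjusted p = 0.75 by edgeR with Benjamini-Hochberg). It ran from 0.83 to 1.59 in the 6 alternatives in which the gene passed a filter. The gene fell under the filter without fasted library 1, without fasted library 3, without both and with the acinar covariate. The range therefore leaves those settings out. The mean of fasted libraries 4 and 5 was 1.69 CPM, against 1.26 CPM over the fed libraries.

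**Figure D2:**
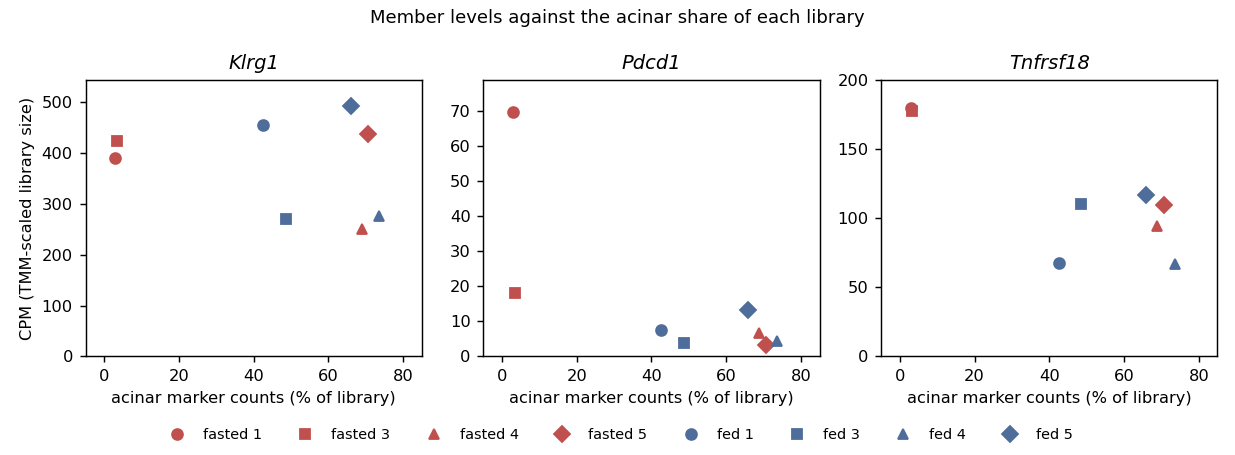
Levels of Klrg1, Pdcd1 and Tnfrsf18 in CPM over TMM-scaled library sizes (y axis, linear) against the percentage of a library's counts that came from acinar marker genes (x axis), 1 point for each of the 8 libraries. The fasted libraries at 3.02% and 3.37% acinar counts hold the 2 highest levels of Pdcd1 and Tnfrsf18, but not of Klrg1.

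The other checkpoint receptors were close to the limit of detection. Ctla4, which encodes the receptor CTLA-4 that competes with CD28 for its ligands, had 3 counts in fasted libraries, all in library 1, and 2 counts in fed libraries, all in library 1. Tigit, which encodes a receptor for the poliovirus receptor protein, had 2 counts in fasted libraries, all in library 4, and 4 counts in fed libraries, all in library 4. Lag3, which encodes a receptor for major histocompatibility complex class II, had 1 count in each treatment. None of these 3 genes was counted in more than 1 library of a treatment.

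Cd160, which encodes a receptor for the herpesvirus entry mediator, was patchy in a different way. It had 0, 8, 0 and 0 counts in fasted libraries 1, 3, 4 and 5, against 7, 1, 2 and 0 counts in fed libraries 1, 3, 4 and 5. Pooled over the libraries of a treatment this was 0.37 CPM of library totals in fasted libraries (95% exact Poisson interval 0.16 to 0.72) and 0.27 in fed libraries (0.13 to 0.50), intervals that overlap and cover counting error only. A count of 8 in fasted library 3 beside 0 in fasted libraries 4 and 5 is a spread that such an interval does not describe. Fasted libraries 4 and 5 had more total counts than library 3 but fewer ILC2 identity counts, at 13266 and 12000 against 14147.

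Il1r2, which encodes the type 2 interleukin-1 receptor, a decoy that binds the cytokine without signalling, had 0 counts in all 4 fasted libraries and 9 in fed libraries, all of them in library 4. A count of 0 in 21794979 pooled fasted counts allows a level of up to 0.14 CPM of library totals (3 counts, a one-sided limit, counting error only). Acinar markers took 12161131 of these counts and 24966800 of the 37097331 pooled fed counts. This limit and the intervals that follow are therefore not on a scale of ILC2 RNA. The two-sided 95% exact Poisson interval ran from 0 to 0.17 CPM in the pooled fasted libraries and from 0.11 to 0.46 CPM, around 0.24 CPM, in the pooled fed libraries, so the intervals overlap. Fed library 4 was the deepest of all, and after every library was thinned to 1797504 counts, Il1r2 and Tigit had 0 counts in every library. At this depth no difference between fasted and fed could be read for Ctla4, Tigit, Lag3, Cd160 or Il1r2.

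**Figure D3:**
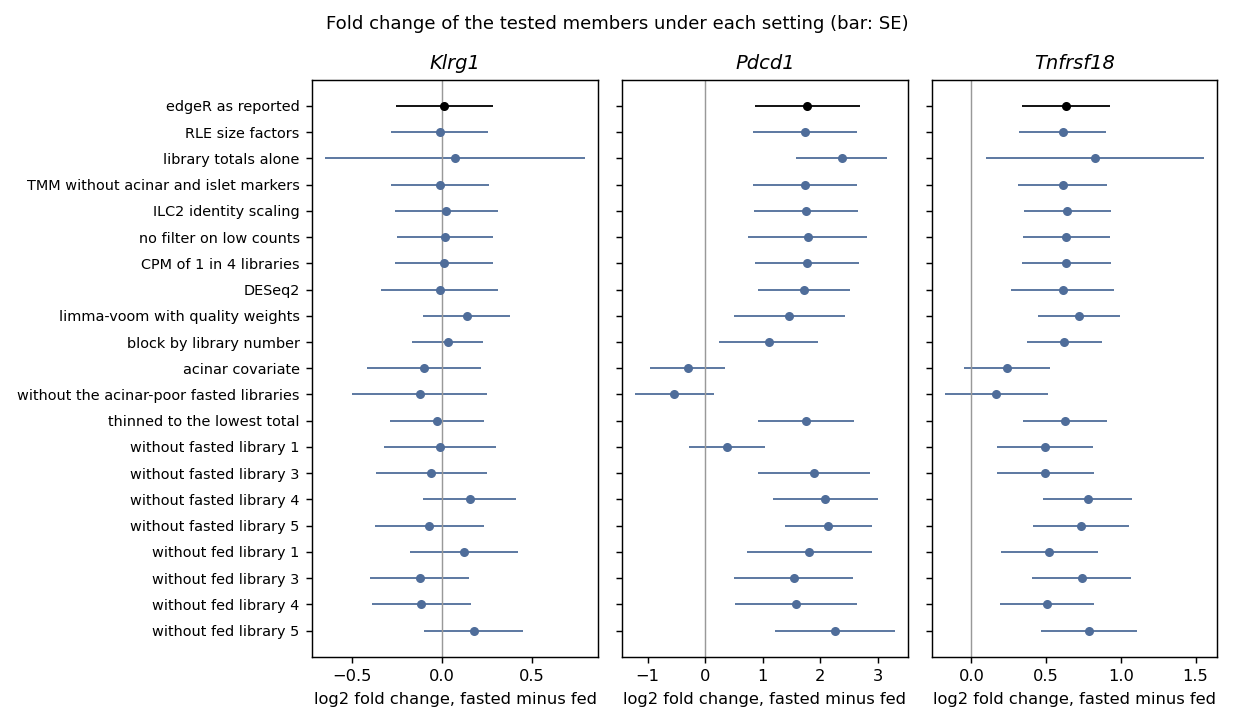
Log2 fold change, fasted minus fed, of Klrg1, Pdcd1 and Tnfrsf18 (x axis, a scale for each gene) as reported (top, black) and under each alternative (y axis), with the SE as a bar; values with library totals alone are relative to the median shift of all genes. Pdcd1 lies at 1.78 as reported and at -0.54 without the fasted libraries poor in acinar RNA, while Tnfrsf18 lies between 0.17 and 0.83 in all settings shown.

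The ligands of these receptors were mostly too low to test in these libraries. Of 17 listed ligands, 13 had a row, 4 were tested, 0 passed and the median log2 fold change was 0.01, against -0.0017 over all 7700 genes, of which 49.8% had a positive value. Pdcd1lg2, which encodes the PD-1 ligand PD-L2, was the ligand with the most counts, at 37.7 ± 7.78 CPM in fasted libraries and 31.1 ± 16.5 CPM in fed libraries (SD, n = 4 each; log2 fold change 0.30 ± 0.36, or 0.03 ± 0.47 without fasted libraries 1 and 3). Pvr, the ligand of TIGIT, had a log2 fold change of 0.28 ± 0.91, and Lgals3, a galectin that binds LAG-3, one of -1.08 ± 0.72. Cd274, which encodes the other PD-1 ligand, PD-L1, had 38 counts in fasted libraries and 32 in fed libraries. Tnfsf4, the OX40 ligand, had 1 count in fasted libraries and 9 in fed libraries, all of them in library 3. Cd86, which binds CTLA-4, and Tnfsf18, the GITR ligand, were not analysed here. Cd80, a ligand of CTLA-4 and CD28, had 0 counts in fasted libraries and 6 in fed libraries. Il1b, the cytokine interleukin-1β, had 8 counts in fasted libraries and 6 in fed libraries, and the interleukin-1 receptor antagonist Il1rn had 2 counts in fasted libraries and 0 in fed libraries.

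Genes that carry the signals of inhibitory receptors showed no common direction. Of 18 listed, 15 were tested, 8 had a positive and 7 a negative log2 fold change, and the median was 0.02. The phosphatases Ptpn11 (SHP-2) and Ptpn6 (SHP-1), which bind the tails of PD-1 and other checkpoint receptors, had log2 fold changes of -0.33 ± 0.46 and -0.34 ± 0.36, and the lipid phosphatase Inpp5d one of 0.09 ± 0.24. Ptpn22, a tyrosine phosphatase that restrains antigen receptor signalling in T cells, had the smallest p of the list. It was at 10.8, 18.7, 21.6 and 19.3 CPM in fasted libraries 1, 3, 4 and 5, against 3.12, 6.77, 6.72 and 5.48 CPM in fed libraries 1, 3, 4 and 5. Its groups did not overlap, and its log2 fold change of 1.64 ± 0.37 did not pass (edgeR, unadjusted p = 0.0010, adjusted p = 0.50). Without fasted libraries 1 and 3 it was 1.86 ± 0.45, which is a difference as large without the libraries poor in acinar RNA as with them. Of 20 other inhibitory receptors 6 were tested and 0 passed, with a median of 0.37. The smallest p among them was that of Lilrb4a, counted under an older symbol and uncertain where reads could be shared with its close copy Lilrb4b, at 0.76 ± 0.48.

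Among the other TNF receptors and their signalling genes 0 passed as well. Of 26 other TNF receptors 11 were tested, 5 with a positive and 6 with a negative log2 fold change (median -0.07), and Tnfrsf11a, the receptor RANK, had the smallest p at -1.05 ± 0.49, with no overlap between groups. Of 17 TNF family ligands 6 were tested (median -0.15), and the cytokine gene Tnf had the smallest p, at -0.71 ± 0.35. Of 30 TRAF and NF-κB genes, which relay the signals of GITR and OX40, 26 were tested, 19 of them positive and 7 negative, with a median of 0.11. The adaptors Traf1 and Traf2 had log2 fold changes of 0.27 ± 0.38 and -0.30 ± 0.50, the NF-κB subunit gene Nfkb2 one of 0.23 ± 0.29 and the inhibitor gene Nfkbia one of 0.26 ± 0.25. Without fasted libraries 1 and 3, Traf1, Nfkb2 and Nfkbia were at -0.29 ± 0.43, -0.19 ± 0.35 and -0.08 ± 0.33. Traf5 was not analysed here.

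Tnfaip3, which encodes A20, a feedback inhibitor of NF-κB, had the smallest p of the NF-κB list. It was at 225, 189, 229.5 and 174 CPM in fasted libraries 1, 3, 4 and 5, against 95.5, 152, 141 and 92.8 CPM in fed libraries 1, 3, 4 and 5, without overlap. Its log2 fold change of 0.77 ± 0.23 did not pass (edgeR, unadjusted p = 0.0068, adjusted p = 0.79), and it was 0.75 ± 0.32 without fasted libraries 1 and 3. Of the 26 tested genes of this list 3 had groups that did not overlap, the others being Birc3 (fasted higher) and Ikbkb (fasted lower), against 3.52% of all genes tested.

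Of 9 other costimulation genes 6 were tested and 0 passed (median 0.20). Cd226, which encodes DNAM-1, the activating counterpart of TIGIT, had a log2 fold change of 0.83 ± 0.47, and Icos, a costimulator of ILC2, one of 0.31 ± 0.47, or -0.23 ± 0.53 without fasted libraries 1 and 3. Cd28 had 23 counts in fasted libraries, 22 of them in library 3, and 0 in fed libraries. In the interleukin-1 receptor family 9 of 18 genes were tested and 0 passed (median 0.35). The kinase gene Irak4 had the smallest p at 1.19 ± 0.59. It was at 45.9, 14.2, 7.37 and 15.9 CPM in fasted libraries 1, 3, 4 and 5, against 8.03, 9.88, 14.6 and 3.08 CPM in fed libraries 1, 3, 4 and 5. Its log2 fold change was 0.46 ± 0.51 without fasted library 1, 0.36 ± 0.60 without fasted libraries 1 and 3 and 0.44 ± 0.59 with the acinar covariate. The shared receptor chain Il1rap was at 0.54 ± 0.93. Il1r1, the signalling counterpart of the decoy, was not analysed here. Of 18 transcription factors known to regulate checkpoint receptors 11 were tested and 0 passed (median 0.09), with the smallest p for the repressor Bach2 at 1.31 ± 0.50, whose groups did not overlap. It was at 0.91 ± 0.67 without fasted libraries 1 and 3.

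**Figure D4:**
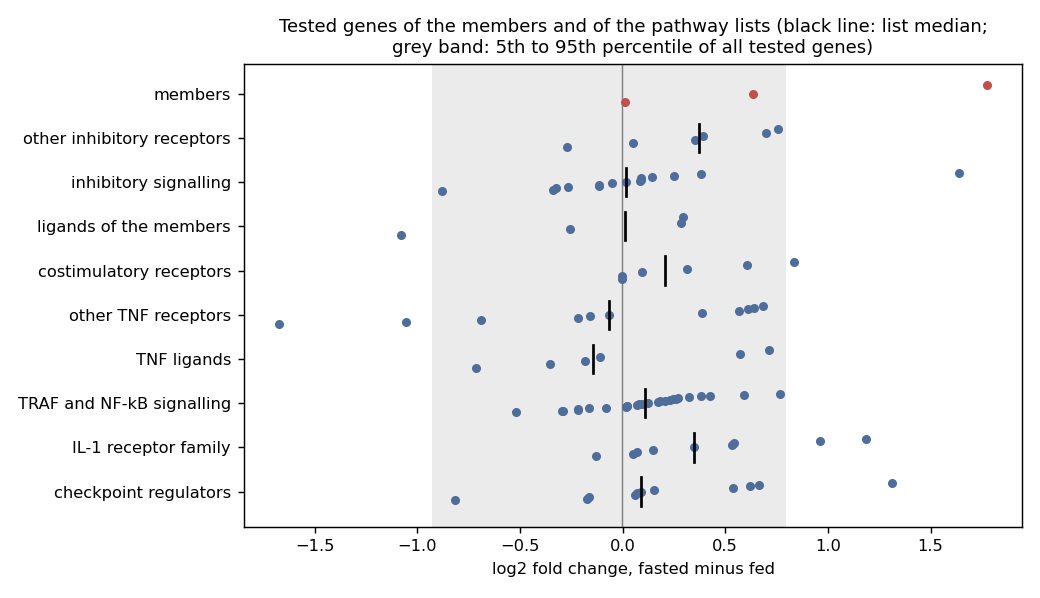
Log2 fold change, fasted minus fed (x axis), of each tested gene of the members and of 9 pathway lists (y axis), with the list median as a black line and, in grey, the range from the 5th to the 95th percentile of all tested genes (-0.92 to 0.79). Pdcd1 at 1.78 and Ptpn22 at 1.64 lie furthest to the right; neither passed the threshold.

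The genes whose levels ran most nearly parallel to each tested member over the 8 libraries were different ones. By Pearson correlation of log2 CPM over 7699 other tested genes, Klrg1 was most like Bin3 (r = 0.97) and H6pd (0.96), Pdcd1 most like Fam104a (0.98) and Slc52a2 (0.97), and Tnfrsf18 most like Nfkbid (0.97) and Rad52 (0.97). Nfkbid encodes a nuclear protein of the IκB family. With so many genes set against 8 libraries that share their depth and composition, high values are found for some gene in any case, and they are given as a description.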

How the data were processed

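RNA was measured in 8 libraries of islet ILC2, 4 fasted and 4 fed. Per the labels' protocols RNA was taken in Trizol and libraries were made by CEL-seq2; the submitters' processing notes name STAR, edgeR and mm10, without versions. The authors deposited whole-number counts per gene, and no source used here says if these are reads or molecular identifiers. The treatment was read from column names, and 2 further columns were not used. ERCC rows (11, with 20 counts) were left out. The labels do not tie libraries to separate mice, so the p-values reflect the spread between libraries, which may be technical. No pair within a group differed by less than counting noise (chi-square of 13.6 or more a gene).

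With edgeR 4.0.16 (R 4.3.3), filterByExpr kept 7700 genes, TMM factors (0.54 to 2.11) scaled libraries, and fasted was set against fed with the robust quasi-likelihood test, two-sided, with no covariate, Benjamini-Hochberg adjusted over all genes at 0.05. SE is the log2 fold change over the root of its F statistic. Libraries of the same number were compared as possible pairs, and the main test did not use this pairing. Deviations from group means correlated at 0.23, 0.14, 0.50 and 0.13 in pairs of the same number. Pairs of different numbers ran from -0.40 to 0.22. Fasted 5 with fed 4 (0.22) and fasted 3 with fed 1 (0.20) were above same-number pairs 3 and 5, so the pairing is uncertain. The fits were tested on simulated data. Alternatives were other scalings, filters, DESeq2 1.42.0, limma-voom (limma 3.58.1), the block by number, the log2 acinar share as a covariate, thinning and left-out libraries.

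The members and lists were chosen with earlier results of these data known. Named genes are the members, their direct partners and, of each pathway list, the genes with the smallest p; to save space only the first of each list is given, a narrowing made after values were seen. Of 292 listed genes, 9 were matched by older symbol and chromosome. Coordinates of genes come from GENCODE vM21 (mm10), promoters from RefSeq, whose start sites can differ from GENCODE's. No source used here gives the strand setting of the counting. Tnfrsf18, Il1r2 and Cd160 overlap genes on the other strand. On the same strand, Ctla4 overlaps the pseudogene Rpl18-ps1 and Il1r2 overlaps Gm37347, neither of which had a row.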

Additional observations from a re-analysis of the deposited data

Results flagged for a closer look

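A Dixon gap test on the 4 libraries of each group, over the members and the partner genes named above, marked 18 of 70 groups in which 1 library stood far from the others, 9 of them among the members. Chance marks about 1 in 20 groups, and in genes with a few counts any single counted library is marked.

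Among the receptors near the limit of detection, the level in the library that stood apart was as follows, with the other libraries of its group at 0 CPM unless given. Ctla4 was at 0.702 CPM in fasted library 1 and at 0.892 CPM in fed library 1. Tigit was at 0.369 CPM in fasted library 4 and at 0.296 CPM in fed library 4. Lag3 was at 0.234 CPM in fasted library 1 and at 0.343 CPM in fed library 5. Cd160 was at 1.56 CPM in fasted library 3 and at 3.12 CPM in fed library 1, where the other fed libraries reached at most 0.148 CPM. Il1r2 was at 0.665 CPM in fed library 4.

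Among partner genes, Tnfsf4 was at 0.234 CPM in fasted library 1 and at 1.22 CPM in fed library 3. Il1b was at 1.87 CPM in fasted library 1 and at 0.443 CPM in fed library 4. Cd80 was at 0.443 CPM in fed library 4, and Il1rn was at 0.468 CPM in fasted library 1. Cd28 was at 4.29 CPM in fasted library 3, with the other fasted libraries at 0 to 0.184 CPM. Ptpn11, with counts in every library, was at 13.7 CPM in fasted library 3 against 6.27 to 7.39 CPM in the other fasted libraries, and at 3.77 CPM in fed library 5 against 12.6 to 13.8 CPM in the other fed libraries.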

How the results depend on the processing

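No member was called under any of 20 alternatives. Over all genes edgeR called 0, library totals alone 1, no filter on low counts 1, thinning to the lowest total 2 and DESeq2 8 (338 had an unadjusted p under 0.05 by edgeR and 352 by DESeq2), and the cause was not tested. With library totals alone all genes shifted by 0.51, and fold changes are relative to that. Members without overlap numbered 0, and 0 to 1 with each library left out, Tnfrsf4 being the 1 without fasted library 4. That library held the lowest fasted level of Tnfrsf4, at 0.92 CPM. The share of all genes without overlap in that setting was not counted, so the 1 cannot be weighed. The block by library number changed no call; it gave log2 fold changes of 0.03 ± 0.20 for Klrg1, 1.10 ± 0.86 for Pdcd1 and 0.62 ± 0.25 for Tnfrsf18 (adjusted p = 0.71 by edgeR). Of 24 log2 fold changes 16 kept their sign in every alternative run, Tnfrsf18 among them, at 0.17 to 0.83. Tnfrsf4, also among them, was run in only 6 alternatives, none of which left out fasted library 1 or 3. None of the values that changed sign belonged to a called gene, and the cause was not tested. Klrg1 was at -0.015 with RLE factors, -0.012 with TMM without acinar and islet markers, -0.014 with DESeq2 and -0.029 when thinned. With the acinar covariate Klrg1 was at -0.10, Pdcd1 -0.30, Icos -0.20, Traf1 -0.20, Nfkb2 -0.14, Nfkbia -0.032 and Inpp5d -0.12. Without fasted libraries 1 and 3 Klrg1 was at -0.12, Pdcd1 -0.54, Icos -0.23, Traf1 -0.29, Nfkb2 -0.19, Nfkbia -0.079 and Inpp5d -0.13. Pvr was at -0.12 with limma-voom. With each library left out in turn, Klrg1 ran from -0.13 to 0.17, Pdcd1 from 0.38 to 2.25, Pvr from -0.33 to 0.77, Traf1 from -0.11 to 0.56 and Inpp5d from -0.053 to 0.19. Depth limits Ctla4, Tigit, Lag3, Cd160 and Il1r2, with at most 10 counts a treatment.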
